A study of Mus musculus with 7 samples.

Results

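Fetal liver cells of the mouse that carry the surface antigen Sca1 were compared with cells sorted as lacking it, across all genes of a short-oligonucleotide array. The arrays were taken by their titles, which name liver endothelial progenitor cells sorted as Sca1+ (2 arrays) or Sca1- (3 arrays). These 5 arrays are part of 7 in the series. The other two hold unsorted progenitors, which served as a reference level, and a feeder cell layer, which was not used here. Values are array signals after scaling each array to a trimmed mean of 500, differences are in log2 units, Sca1+ minus Sca1-, after raising signals to a floor of 64, and errors are standard errors (SE) from the fit. All groups came from total RNA of fetal liver, and the sources used here give no genotype, strain, age or treatment that separates them. Nor do they say whether animals were pooled, whether arrays came from separate cultures, or how the sort was gated, so p-values measure only the spread between these arrays, which may be technical. Of 12393 genes measured, 8591 were tested, namely those whose signal exceeded 100 on 2 or more sorted arrays.

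Sca1, the product of Ly6a, is a membrane-anchored antigen found on blood stem cells, some endothelial cells and several other cell types, and it is widely used for sorting. The fetal liver is the main site of blood formation before birth, and it holds macrophages, granulocyte precursors, early B cells, megakaryocytes and red cell precursors beside hepatoblasts, endothelium and mesenchyme. Macrophages there engulf nuclei expelled by red cell precursors, a task that relies on lysosomes and lipid handling, while granulocytes mature through a series of granule-forming stages. The annotation used pairs no probe set with Ly6a, so the antigen of the sort could not be read.

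In each fraction, 1 array has a title without a sample number (replicate 1) and the others have a numbered title. The arrays therefore give 2 pairings that share no array, the unnumbered Sca1+ with the unnumbered Sca1- array, and Sca1+ sample 2 with Sca1- samples 2 and 3. Signals are listed below in the order of the replicates, so the unnumbered array comes first in each fraction. The 3'/5' signal ratio of the Gapdh control probe sets was 4.86 and 13.2 on the unnumbered Sca1+ and Sca1- arrays and 2.04 to 2.16 on the numbered arrays. The highest background control reached 170 on the unnumbered Sca1- array and 50.8 to 88.2 on the other 4. Across genes, the unnumbered Sca1+ array had a higher correlation with the numbered Sca1- arrays (r = 0.878 and 0.874) than with its unnumbered partner (0.854) or with the other Sca1+ array (0.827). The part of RNA quality or background in the results below was not tested.

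The marker of leukocytes was high and the marker of endothelium low on every sorted array. Ptprc, the gene of the pan-leukocyte phosphatase CD45, had values of 10505 and 4777 in Sca1+ and 13668, 7586 and 6501 in Sca1-. The fractions overlapped, with a difference of -0.31 ± 0.53. Pecam1, the gene of the endothelial adhesion protein CD31, had values of 14.99 and 206 in Sca1+ and 23.2, 117 and 25.8 in Sca1-, at or below the 64 floor on 3 of the 5. Adgre1, which encodes the macrophage antigen F4/80, had values of 16333 and 5549.6 in Sca1+ and 1812, 3565 and 3513 in Sca1-, and both Sca1+ values exceeded all Sca1- values. Pglyrp1, which encodes a granule protein of neutrophils, had values of 402 and 75.4 in Sca1+ and 6249, 8415 and 8098 in Sca1-, with both Sca1+ arrays below. The 28 pan-endothelial genes summed to 4288 and 8275 in Sca1+ and 3564, 4636 and 5005 in Sca1-. The 24 macrophage genes summed to 251778 and 169053 in Sca1+ and 299962, 176844 and 160321 in Sca1-, with the fractions overlapping. The endothelial label was therefore not borne out by CD31 transcript, and the arrays are called by the sort alone. In mixed cells, fewer cells of a type and less RNA per cell cannot be told apart.

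**Figure D1:**
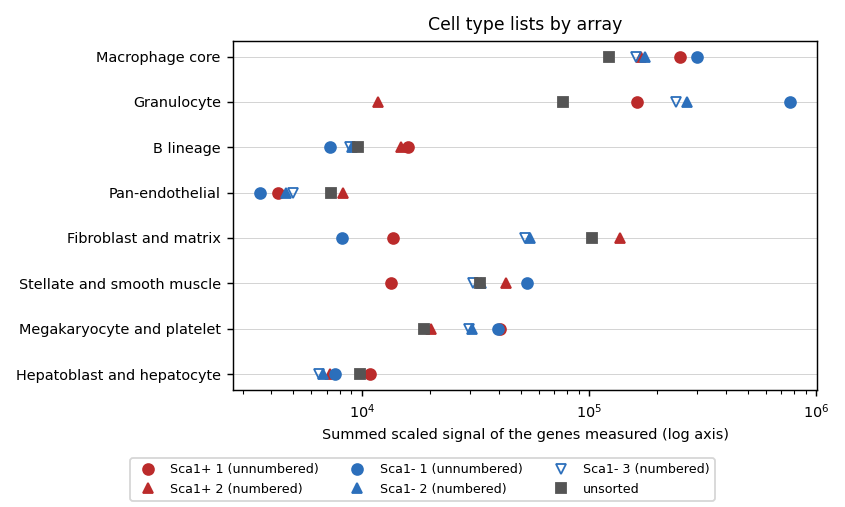
Summed scaled signal (x axis, log scale) of 8 cell type lists over their measured genes, with 1 point for each sorted array and the unsorted array. Both Sca1+ arrays lie left of every Sca1- array for granulocyte genes and right of every one for B lineage genes, while fibroblast genes separate the numbered from the unnumbered sorted arrays.

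The fractions were compared to find transcripts that separate them. With the fraction as the only term, 0 of 8591 genes passed an adjusted p of 0.05 in limma (0% in each direction), and the smallest was 0.71. An unadjusted p under 0.05 was found for 95 genes higher in Sca1+ (1.11%) and 197 lower (2.29%). Both directions together lie below the share of 0.05 that this threshold is expected to give where no gene differs. With the array set (numbered or unnumbered) as a block, 0 genes passed as higher and 85 as lower (0.989%), with 2 residual degrees of freedom against 3 without the block. That count was 0 without the unnumbered Sca1+ array, 0 without the unnumbered Sca1- array, 1097 (651 higher, 446 lower) without Sca1+ replicate 2, 209 without Sca1- replicate 2 and 79 without Sca1- replicate 3. Both Sca1+ arrays lay above all 3 Sca1- arrays for 1043 genes (12.1%) and below all for 726 (8.45%).

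The pairings shared more genes on the lower than on the higher side. The unnumbered pair differed at least 2-fold for 1466 genes higher in Sca1+ (17.1%) and 1263 lower (14.7%). The numbered Sca1+ array lay at least 2-fold above both of its Sca1- partners for 266 genes (3.1%) and below both for 306 (3.56%). Of these, 187 were lower in both pairings (2.18% of genes tested), which is 14.8% of the unnumbered list and 61.1% of the numbered list. Over all genes tested the matching lower shares were 3.56% and 14.7%. Only 27 were higher in both (0.314%), or 1.84% and 10.2% of the lists, below the 3.1% and 17.1% over all genes tested. Sharing on the higher side was thus no more than the all-gene shares give. Leaving out Sca1- replicate 2 gave 52 genes higher in both and leaving out Sca1- replicate 3 gave 79, since the nearer Sca1- array decides it. In opposite directions, 40 genes were at least 2-fold lower in the unnumbered pair and higher in the numbered one, and 11 the reverse. Across the 8591 genes, which are not independent replicates, the differences in the pairings had r = 0.303 (Spearman coefficient 0.228), and r = 0.444 over the 2554 genes with a signal above 500 on all 5 arrays. The spread of the differences was wider in the unnumbered pair (SD 1.05) than in the numbered one (0.667). Among the fifth of genes with the lowest level the median difference was -0.29 in the unnumbered pair and 0.29 in the numbered one, medians of opposite sign, whereas the median over all genes tested was 0.02 and 0.07.

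**Figure D2:**
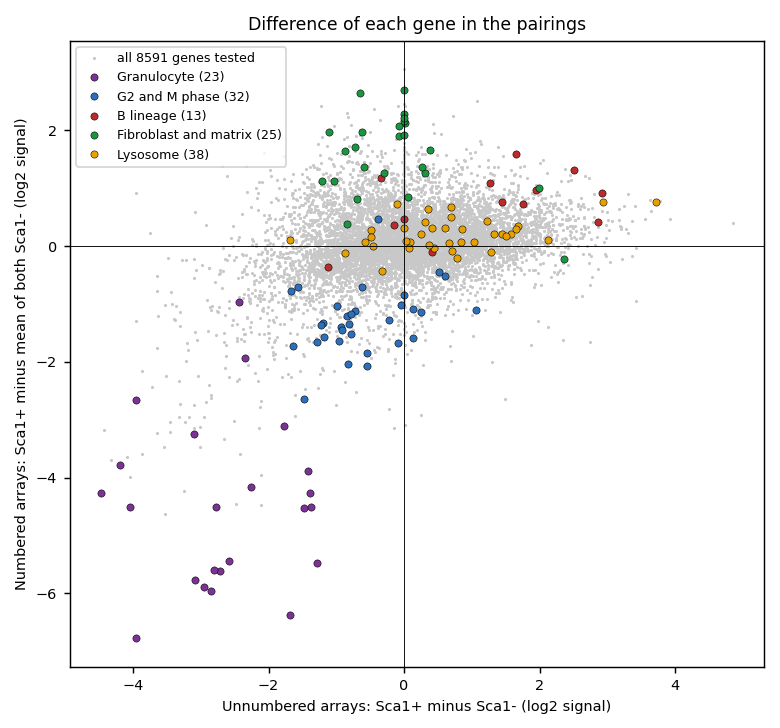
Difference of each of 8591 genes in the unnumbered pair (x axis) and the numbered pairing (y axis), both in log2 signal, with 5 gene lists coloured. Granulocyte genes lie far to the lower left, B lineage genes mostly to the upper right, and fibroblast genes spread upwards near or left of 0 on the x axis.

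The genes highest in Sca1+ in both pairings included a B cell receptor modulator, a prion protein and matrix and growth factor receptor genes. They were chosen for that shared difference, so its sign and size in the pairings are not independent support. Sharing on this side was no more than the all-gene shares give, as stated above. Cd72, on chromosome 4, encodes a lectin-like inhibitory co-receptor of B cells that macrophages can also carry, and it had values of 5686 and 7468 in Sca1+ and 998, 3092 and 2881 in Sca1-. Every Sca1+ value exceeded every Sca1- value, and the difference was 1.65 ± 0.57, or 2.51 in the unnumbered and 1.32 in the numbered pairing. With the block it was 1.83 ± 0.31, and the adjusted p of 0.072 missed the threshold. Prnp, which encodes the cellular prion protein, had values of 1925 and 3689 in Sca1+ and 587, 1534 and 1636 in Sca1-. Here too the fractions did not overlap, and the difference of 1.23 ± 0.58 was 1.43 ± 0.23 with the block (adjusted p = 0.0623). Plxdc2, which encodes a plexin-domain membrane protein, had values of 1432 and 1396 in Sca1+ and 259, 629 and 631 in Sca1-. The Sca1+ values were close to each other and above every Sca1- value, giving 1.59 ± 0.51. Fn1, which encodes the matrix glycoprotein fibronectin, had values of 8364 and 12366 in Sca1+ and 2106, 6201 and 6083 in Sca1-. Its lowest Sca1+ signal stayed above its highest Sca1- signal, with a difference of 1.24 ± 0.57. Tgfbr2, which encodes the type II receptor for transforming growth factor beta, had values of 4942 and 2903 in Sca1+ and 1797, 1502 and 1647 in Sca1-. The unnumbered Sca1+ array was highest, the fractions did not overlap and the difference was 1.20 ± 0.40.

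Other genes on this side were enzymes, scavenging receptors and secreted factors. Folr2, a folate receptor of resident macrophages, had values of 1916 and 3291 in Sca1+ and 894, 1713 and 1678 in Sca1-. Slamf9, an immune cell surface receptor of the SLAM family, had values of 2306 and 1129 in Sca1+ and 482, 582 and 605 in Sca1-. Fads1, a desaturase that makes polyunsaturated fatty acids, had values of 1202 and 1041 in Sca1+ and 431, 494 and 562 in Sca1-. In all of these genes the Sca1+ values were above, without overlap, with differences of 0.87 ± 0.47, 1.54 ± 0.45 and 1.18 ± 0.37. Angptl4, an inhibitor of lipoprotein lipase, had values of 556 and 1327 in Sca1+ and 295, 504 and 343 in Sca1- and a difference of 1.21 ± 0.51. The scaffold gene Tax1bp3 (1.03 ± 0.38) and the heparan sulfate epimerase gene Glce (1.36 ± 0.71) were separated in the same direction. A further 4 genes named by the same rule, the serine carboxypeptidase gene Scpep1, the death-associated kinase gene Dapk1, the Ras regulator gene Rasa1 and the cargo receptor gene Mcfd2, overlapped between the fractions. Their order followed the array set, since the numbered Sca1- arrays lay above the unnumbered Sca1+ array for each of them. Within the pairings they differed by 1.09, 1.26, 1.96 and 1.61 (unnumbered) and by 1.06, 1.05, 0.98 and 0.89 (numbered).

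**Figure D3:**
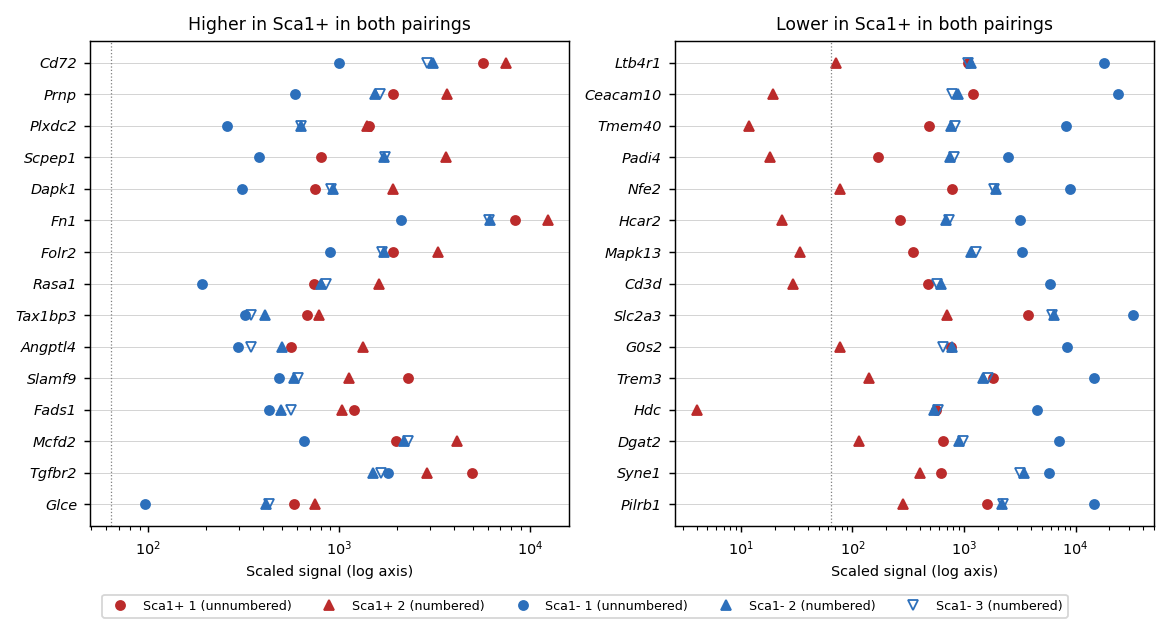
Scaled signals (x axis, log scale) on the 5 sorted arrays of the 15 genes with the largest difference shared by both pairings in each direction, chosen for that difference and outside the granulocyte and cell cycle phase lists. The dotted line is the floor of 64. Several genes, such as Scpep1 and Trem3, separate within each array set although the fractions overlap over all 5 arrays.

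B lineage genes had the highest median of the lists. Of 13 tested, 12 had a difference above 0 against 55.9% of all genes tested, and 8 had non-overlapping values with Sca1+ above, against 12.1%. In limma, 7 were higher with an unadjusted p under 0.05, against 1.11% of all genes tested. The adjusted threshold was passed by 0, with or without the block. The median was 1.25 beside 0.07 over all genes tested, 1.45 in the unnumbered and 0.75 in the numbered pairing, and 0.82 to 1.54 with single arrays left out. Ms4a1, the gene of CD20 on mature B cells, had values of 615 and 254 in Sca1+ and 195, 75.6 and 93.96 in Sca1-. The fractions did not overlap, although the numbered Sca1- signals were near the background controls, and the difference was 1.83 ± 0.61. Cd79b, a signalling chain of the B cell receptor, had values of 1156 and 504 in Sca1+ and 342, 305 and 302 in Sca1-. All 3 Sca1- arrays stood close together, below both Sca1+ arrays, and the difference was 1.27 ± 0.47. Ighm, which encodes the heavy chain of immunoglobulin M, had values of 2504 and 1063 in Sca1+ and 346, 886 and 713 in Sca1-, again without overlap, and a difference of 1.44 ± 0.58. Blnk, an adaptor of the same receptor, had values of 487 and 336 in Sca1+ and 14.8, 204 and 155 in Sca1-, with the floor reached on the unnumbered Sca1- array, so its difference of 1.68 ± 0.59 depends on the floor.

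Some members with weak signals were also separated. Spib, a transcription factor of B cells and plasmacytoid dendritic cells, had values of 246 and 171 in Sca1+ and 29.8, 81.8 and 93.6 in Sca1-, and Blk, a Src family kinase, had values of 252 and 169 in Sca1+ and 105, 97.8 and 44.8 in Sca1-. Both were separated, with differences of 1.38 ± 0.44 and 1.25 ± 0.47, and both had Sca1- signals at or near background. Cd22, an inhibitory co-receptor, had values of 670.1 and 247 in Sca1+ and 245, 162 and 132 in Sca1-, so that Sca1+ replicate 2 and Sca1- replicate 1 differed by under 2 signal units. Other members did not follow. Il7r, the interleukin 7 receptor, had values of 2039 and 1798 in Sca1+ and 2269.8, 1279 and 1529 in Sca1-, the kinase gene Btk had values of 1108 and 1106 in Sca1+ and 829, 1126 and 1243 in Sca1- and the tetraspanin gene Cd37 had values of 372 and 960.2 in Sca1+ and 813, 1256 and 1210.1 in Sca1-. In each of these the fractions overlapped, and the differences were 0.22 ± 0.41, 0.07 ± 0.38 and -0.84 ± 0.52. Cd79a, the partner chain of Cd79b, had values of 130.1 and 275 in Sca1+ and 164, 109 and 136 in Sca1- and differed by -0.34 in the unnumbered and 1.17 in the numbered pairing. Igll1, a surrogate light chain of pre-B cells, was at the floor on 3 arrays, with a difference of 0.16 ± 0.52. Of 23 listed genes with a probe set, 13 passed the signal minimum and all of them are named here. The median depended on the weak genes: it was 0.69 with the higher floor and 0.22 with no filter.

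**Figure D4:**
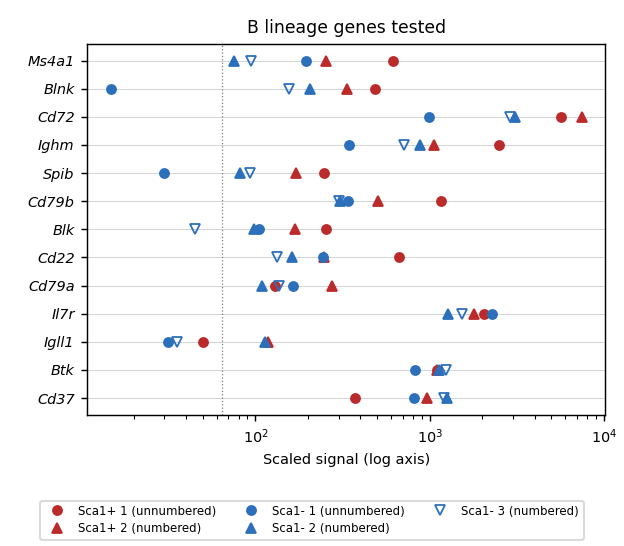
Scaled signals (x axis, log scale) of the 13 tested B lineage genes on the 5 sorted arrays, ordered by their difference. From Ms4a1 down to Cd22 both Sca1+ arrays lie right of every Sca1- array, and from Cd79a down the fractions overlap; the dotted line is the floor of 64.

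Antigen presentation genes were higher in Sca1+ in most members. Over all genes tested, 55.9% were above 0 and 12.1% were separated upwards. Of 8 class II genes tested, 7 were above 0 and 3 were separated, with a median of 0.74 (0.69 and 0.26 in the pairings), which ran from 0.35 (Sca1+ replicate 1 left out) to 0.75 (Sca1- replicate 1 left out). H2-Aa, a class II alpha chain, had values of 1201 and 273 in Sca1+ and 241, 154 and 102 in Sca1-. The unnumbered Sca1+ array stood far above the rest, and the difference was 1.88 ± 0.72. H2-Ab1, its beta chain partner, had values of 321 and 303 in Sca1+ and 194, 54.2 and 46.98 in Sca1-, at the floor on the numbered Sca1- arrays. The invariant chain gene Cd74, which is needed for the same pathway, had values of 392 and 349.9 in Sca1+ and 566, 291 and 301 in Sca1- and did not separate, with 0.01 ± 0.46. H2-DMa, a peptide loading chain, had values of 695 and 434 in Sca1+ and 443, 691 and 595 in Sca1- and a difference of -0.04 ± 0.43. Of 15 class I and immunoproteasome genes, 13 were above 0 and 5 separated, with a median of 0.27 (0.82 unnumbered, 0.11 numbered). H2-M3, which presents formylated peptides, had values of 2879 and 1962 in Sca1+ and 839, 1041 and 1183 in Sca1- and a difference of 1.23 ± 0.39. B2m, the shared light chain, had values of 22510.0 and 21251 in Sca1+ and 12701, 16915 and 15276 in Sca1-, where the numbered arrays differed by 0.40 and the unnumbered by 0.83. None of these genes passed the adjusted threshold in either fit.

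Macrophage genes divided by member. The 24 core genes tested had a median of 0.25. Of them, 6 were separated upwards and 1 downwards, beside 12.1% and 8.45% of all genes tested. The median was 0.24 in the unnumbered and 0.04 in the numbered pairing and ran from 0.029 (Sca1+ replicate 1 left out) to 0.33 (Sca1+ replicate 2 left out). Adgre1, listed above, differed by 1.75 ± 0.58, or 3.17 in the unnumbered against 0.65 in the numbered pairing. Fcgr1, the high affinity receptor for immunoglobulin G, had values of 11891 and 6043 in Sca1+ and 2748, 3949 and 3724 in Sca1-, and its difference was 1.30 ± 0.44. The colony stimulating factor receptor gene Csf1r, on which macrophages depend, had values of 35387 and 22049 in Sca1+ and 32740.5, 21474 and 18499 in Sca1-. Its fractions overlapped, and it differed by 0.25 ± 0.45. The lysozyme gene Lyz2, which granulocytes also express, had values of 39708 and 24437 in Sca1+ and 79825, 33569 and 29443 in Sca1- and a difference of -0.46 ± 0.56. Clec7a, a receptor for fungal beta-glucan, had values of 3510.1 and 1235 in Sca1+ and 12434, 3233 and 3070.5 in Sca1- and was lower in both pairings (-1.82 and -1.35). It was 1 of the 85 genes that passed with the block (-1.55 ± 0.22, adjusted p = 0.0423).

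Kupffer cell, complement and chemokine genes lay above the all-gene median. Kupffer genes (12 tested) had a median of 0.26, which became 0.91 when Sca1+ replicate 1 was left out and -0.35 when Sca1+ replicate 2 was. Axl, a receptor for dying cells, had values of 331 and 1742 in Sca1+ and 109, 816 and 819 in Sca1-. It differed by 1.61 and 1.09 in the pairings but followed the array set over all arrays. Slc11a1, a metal transporter of phagosomes, had values of 3218 and 1909.6 in Sca1+ and 1279, 1635 and 1628 in Sca1- and was separated with 0.72 ± 0.40. Of 11 complement genes, 10 were above 0, beside 55.9% of all genes tested, and 2 were separated upwards, beside 12.1%. The complement median was 0.60 (1.23 unnumbered, 0.36 numbered). With single arrays left out it ran from 0.058 (Sca1- replicate 1 left out) to 0.72 (Sca1- replicate 2 left out). C3ar1, the receptor for the fragment C3a, had values of 21724 and 6926 in Sca1+ and 4928, 5278 and 5127 in Sca1- and a difference of 1.26 ± 0.53. C1qa, a chain of the first complement component, had values of 2309.9 and 8435 in Sca1+ and 743, 5828 and 5635 in Sca1-, which separated within the pairings (1.64 and 0.56) and not over all arrays. The chemokine gene Cxcl16, whose product is also a scavenger receptor, had values of 3628 and 1860.2 in Sca1+ and 1086, 1074 and 999.8 in Sca1-, with both Sca1+ arrays above and a difference of 1.30 ± 0.42. Ccl3, an inflammatory chemokine, went the other way with values of 751 and 1210.3 in Sca1+ and 1382, 2023 and 1802 in Sca1- and -0.85 ± 0.41. The chemokine list had a median of 1.40 in the unnumbered pair and 0.01 in the numbered one, and over all arrays it ran from -0.12 (Sca1- replicate 1 left out) to 0.76 (Sca1- replicate 2 left out).

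Lysosomal and lipid handling genes showed small differences in many members. Over all genes tested, 55.9% were above 0, 12.1% were separated upwards and 8.45% downwards. Of 38 lysosomal genes tested, 30 were above 0 and 12 were separated upwards and 0 downwards, with 0 at least 2-fold higher in both pairings. The median was 0.31, with 0.63 and 0.19 in the pairings and 0.25 to 0.42 when single arrays were left out. Lgmn, an asparaginyl endopeptidase, had values of 10086 and 14059 in Sca1+ and 767, 8493 and 8113 in Sca1-. The low value of the unnumbered Sca1- array set most of its difference, which was 3.72 there and 0.76 in the numbered pairing. Scarb2, a lysosomal membrane protein, had values of 4639.5 and 5754 in Sca1+ and 2858, 3523 and 3650.5 in Sca1- and nearly the same difference in both (0.70 and 0.68). The cathepsin gene Ctsb had values of 34775 and 36168 in Sca1+ and 32766, 36473 and 32374 in Sca1-, with the fractions overlapping.

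Lipid handling genes had a median of 0.51 over 19 members, 15 of them above 0, with 0.57 and 0.68 in the pairings. The median ran from 0.16 (Sca1- replicate 1 left out) to 0.97 (Sca1+ replicate 1 left out). Abca1, the cholesterol exporter, had values of 3547 and 4239 in Sca1+ and 809.5, 2469.7 and 2774 in Sca1- and a difference of 1.13 ± 0.59, without overlap. Pparg, a nuclear receptor for fatty acids, had values of 237 and 551 in Sca1+ and 14.6, 268 and 319 in Sca1-, separated within the pairings only. Trem2, a lipid-sensing receptor, had values of 1599 and 6514 in Sca1+ and 449, 4480.0 and 3396 in Sca1-, and Cd36, a fatty acid scavenger receptor, had values of 2625 and 4396 in Sca1+ and 495, 3085 and 2979.7 in Sca1-. For both, the unnumbered Sca1+ array lay between the unnumbered and the numbered Sca1- arrays. Apoe, an apolipoprotein, had values of 43003 and 40221 in Sca1+ and 24313, 33866 and 30538 in Sca1- and was separated with 0.51 ± 0.39. Cholesterol synthesis genes (18 tested) had a median of -0.20, and Mvd, a decarboxylase of that pathway, had values of 200.1 and 155 in Sca1+ and 651, 399 and 285 in Sca1-, lower on both Sca1+ arrays with a difference of -1.26 ± 0.49.

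On the lower side the differences were larger, and many of the genes named are receptors, enzymes and regulators of myeloid cells. These genes too were chosen for the difference shared by both pairings, so its sign and size are not independent support. Ltb4r1, which encodes a receptor for the chemoattractant leukotriene B4, had values of 1089.7 and 70.8 in Sca1+ and 17939, 1164 and 1091 in Sca1-. The unnumbered Sca1+ array reached the level of the numbered Sca1- arrays, while its own partner was far higher and Sca1+ replicate 2 was near the floor. Within the pairings the difference was -4.04 and -3.99, and with the block it passed (-4.01 ± 0.23, adjusted p = 0.00437). Padi4, an enzyme that converts arginine to citrulline in histones, had values of 170.3 and 18.2 in Sca1+ and 2486, 743 and 812 in Sca1-. Both Sca1+ arrays were below every Sca1- array, with a blocked difference of -3.72 ± 0.27 (adjusted p = 0.00511). Nfe2, a transcription factor of megakaryocytes and red cell precursors, had values of 778 and 76.6 in Sca1+ and 8992, 1955 and 1859 in Sca1-, and its blocked difference was -4.16 ± 0.31 (adjusted p = 0.00545). Mapk13, a p38 kinase, had values of 348 and 33.6 in Sca1+ and 3318, 1148 and 1274 in Sca1-, again without overlap.

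Metabolite receptors, transporters and enzymes were among them. Hcar2, a receptor for nicotinic acid and ketone bodies, had values of 269 and 23.2 in Sca1+ and 3146, 694 and 731 in Sca1-. Slc2a3, a high affinity glucose transporter, had values of 3784 and 711 in Sca1+ and 32455, 6375 and 6186 in Sca1-. Hdc, the histamine-forming enzyme, had values of 555 and 3.998 in Sca1+ and 4495, 533 and 585 in Sca1-. In these genes the numbered Sca1+ array was lowest and the unnumbered Sca1- array highest, and all passed with the block, at -3.51 ± 0.27, -3.12 ± 0.20 and -3.08 ± 0.27. G0s2, an inhibitor of fat breakdown, had values of 769 and 77.4 in Sca1+ and 8386, 786 and 649 in Sca1-, and Dgat2, an enzyme that forms triglycerides, had values of 647 and 114 in Sca1+ and 7125, 901 and 979 in Sca1-. The former overlapped and the latter did not, and their blocked differences were -3.31 ± 0.25 and -3.22 ± 0.25. Among surface receptors, Trem3 (-3.28 ± 0.24), Pilrb1 (-3.06 ± 0.22) and Ceacam10 (-3.97 ± 0.26) passed with the block, as did the membrane protein gene Tmem40 (-3.83 ± 0.26). Cd3d, which encodes a chain of the T cell receptor complex, had values of 472 and 28.99 in Sca1+ and 5889.7, 622 and 574 in Sca1- and passed with the block (-3.40 ± 0.27). Its complex partner Cd3g had values of 236 and 54.2 in Sca1+ and 405, 109 and 111 in Sca1-, with -0.78 ± 0.34 (adjusted p = 0.336), and the T and NK list had medians of -0.43 and -0.24 in the pairings. The size of the numbered difference depends on the floor where the numbered Sca1+ array is at it, which holds for Hcar2, Hdc, Ceacam10, Tmem40, Mapk13, Padi4, Cd3d and Cd3g.

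The granulocyte list was lower too. Of 23 tested, 20 were below on both Sca1+ arrays (8.45% of all genes tested) and 16 passed with the block (0.989% of all). The median was -3.39 (-2.71 and -4.51 in the pairings). It ran from -5.02 (Sca1+ replicate 1 left out) to -1.46 (Sca1+ replicate 2 left out). Its summed signal was 163114 and 11793 in Sca1+, 770665, 269615 and 242234 in Sca1- and 76600.1 on the unsorted array, and the Sca1+ arrays themselves stood far apart. Chil1, a chitinase-like protein, had values of 1162 and 82.8 in Sca1+ and 25718, 1627 and 1576 in Sca1- and the smallest blocked adjusted p, 0.00437. Cd177, a surface protein of neutrophils, had values of 304 and 19.4 in Sca1+ and 5587, 883 and 878 in Sca1- and passed as well (-3.96 ± 0.26), with Sca1+ replicate 2 at the floor. How far granulocyte transcripts account for the other genes lower in Sca1+ was not tested.

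Of the 85 genes lower with the block, 16 were in the granulocyte list, which holds 23 of the 8591 genes tested. Another 60 were in none of the 47 lists, and 9 were in 1 other list each. The share of all genes tested that is in no list was not computed, so the 60 are not a result in themselves. Several in no list, chosen after their values were seen, encode enzymes. Tkt, the transketolase of the pentose phosphate pathway, had values of 9263 and 5523 in Sca1+ and 37226, 14051 and 14723 in Sca1- and a blocked difference of -1.65 ± 0.24. Pygl, which breaks down glycogen, had values of 4719 and 1248 in Sca1+ and 19197, 5411 and 5526 in Sca1- and -2.09 ± 0.20. In both, every Sca1+ value was below every Sca1- value. Lta4h, which makes leukotriene B4, had values of 1723 and 418 in Sca1+ and 4983, 2049 and 1705 in Sca1-, with a blocked difference of -1.89 ± 0.26, and Mgst2, a microsomal transferase that can make leukotriene C4, had values of 784 and 174 in Sca1+ and 5768, 911 and 929 in Sca1-, with -2.60 ± 0.25. Cd24a, a surface antigen of immature blood cells, had values of 3256 and 346 in Sca1+ and 20460.2, 3176 and 3867 in Sca1- and a blocked difference of -3.04 ± 0.26.

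Some genes of the nuclear envelope and of chromatin were lower in Sca1+ without overlap. Syne1, which encodes a linker of the nuclear envelope to the cytoskeleton, had values of 616 and 403 in Sca1+ and 5810.3, 3484 and 3157 in Sca1-. The differences were -3.24 and -3.04 in the pairings, and -3.13 ± 0.22 with the block (adjusted p = 0.00511). Lbr, the lamin B receptor, which is needed for the lobed nucleus of granulocytes, had values of 947 and 455 in Sca1+ and 2904, 2493 and 2934 in Sca1- (named after its values were seen, as was Hmgb2). The blocked difference was -2.16 ± 0.29 (adjusted p = 0.0361). Hmgb2, a chromatin protein of dividing cells, had values of 1282 and 609.6 in Sca1+ and 5511, 3955 and 3859.8 in Sca1- and a blocked difference of -2.43 ± 0.24. H2ax, a histone variant marked at DNA breaks, had values of 759 and 753 in Sca1+ and 2848, 2322 and 2308 in Sca1-, and -1.74 ± 0.22 with the block (adjusted p = 0.0315). Of the 11 histone genes tested, 4 were separated downwards and 1 upwards, beside 8.45% and 12.1% of all genes tested. Their median was -0.39 and ran from -0.41 (Sca1- replicate 2 left out) to -0.035 (Sca1- replicate 1 left out). Most replication-dependent histone transcripts carry no poly-A tail, and the sources used here do not name the labelling primer.

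Cell cycle genes differed by phase. Over all genes tested, 8.45% were separated downwards and 12.1% upwards. The 32 G2 and M phase genes had a median of -1.10 and 21 were separated downwards, against -0.27 and 9 of 29 in S phase, whose median was 0.19 in the unnumbered and -0.63 in the numbered pairing and ran from -0.55 (Sca1+ replicate 1 left out) to -0.13 (Sca1- replicate 3 left out). Kif2c, a motor that corrects chromosome attachment, had values of 370.2 and 156 in Sca1+ and 1158, 463 and 568 in Sca1- and a blocked difference of -1.69 ± 0.27 (adjusted p = 0.0623). Cks2, a cofactor of cyclin-dependent kinases, had values of 1097 and 840.5 in Sca1+ and 2669, 2842 and 2490.2 in Sca1-, with -1.50 ± 0.23 (adjusted p = 0.0521). The helicase subunit genes Mcm3, Mcm4 and Mcm6 went opposite ways, by 0.93, 0.94 and 1.40 in the unnumbered and by -0.75, -0.92 and -0.30 in the numbered pairing. Of 21 G1 cyclin and inhibitor genes, 7 were separated downwards and 4 upwards, with a median of -0.21 that ran from -0.36 (Sca1- replicate 1 left out) to -0.046 (Sca1- replicate 3 left out). Ccnd3, a G1 cyclin of blood cells, had values of 1927 and 1591 in Sca1+ and 9629.9, 3868 and 3578 in Sca1- and a difference of -1.54 ± 0.52. Cdkn2c, an inhibitor of its kinase, had values of 255 and 287 in Sca1+ and 473, 553 and 666 in Sca1- and was lower too, with a difference of -1.05 ± 0.39. Gadd45a, a growth arrest gene, had values of 217 and 343 in Sca1+ and 2702, 659 and 526 in Sca1-, with most of its difference in the unnumbered pair (-3.64 against -0.78).

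Lists of pathogen sensing, the oxidative burst, adhesion and migration had members on both sides. Over all genes tested, 12.1% were separated upwards and 8.45% downwards, and several counts here lie near these shares. Of 18 Toll-like receptor and oxidase genes, 5 were separated upwards and 1 downwards, with a median of -0.01. Tlr3, a sensor of double-stranded RNA, had values of 326 and 362 in Sca1+ and 79.4, 220.1 and 187 in Sca1-, higher in Sca1+ with a difference of 1.21 ± 0.55. Ncf1, a subunit of the phagocyte oxidase, had values of 784 and 748 in Sca1+ and 3765, 2084 and 2124 in Sca1-, with nearly equal Sca1+ values, and passed with the block (-1.82 ± 0.26, adjusted p = 0.0423). Cybb, the catalytic subunit, had values of 679 and 457 in Sca1+ and 627, 879 and 873 in Sca1- and went opposite ways, by 0.12 and -0.94. Of 19 integrin and adhesion genes, 3 were separated upwards and 3 downwards. Itgb2, the beta chain of leukocyte integrins, had values of 7762 and 3078 in Sca1+ and 17965, 6375 and 6991 in Sca1- and differed by -1.21 and -1.12. From other lists, Mmp9, a gelatinase stored in neutrophil granules, is listed as a granulocyte and a matrix protease gene. It had values of 7920.3 and 859 in Sca1+ and 40326, 3136 and 3411 in Sca1- and passed with the block (-2.11 ± 0.22). Ltb, which encodes lymphotoxin beta and is in the dendritic cell list, had values of 526 and 518 in Sca1+ and 2207, 1619 and 1372 in Sca1-. It passed as well (-1.76 ± 0.26, adjusted p = 0.0443). The actin and migration list as a whole had a median of -0.25, with 2 of 27 separated upwards and 2 downwards. With the block, 1 gene of this list passed as lower in Sca1+ and 0 as higher. Cd2ap, an actin adaptor, was one of those higher in Sca1+, with values of 2186 and 1215 in Sca1+ and 222, 585 and 716 in Sca1- and 1.85 ± 0.60.

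Progenitor and haem synthesis genes had members on both sides, and megakaryocyte genes lay lower in part. Beside the counts of separated genes stand 12.1% above and 8.45% below over all genes tested. The 21 genes of the stem and progenitor list had a median difference of -0.26, with 2 separated upwards and 4 downwards. Lyl1, a transcription factor of early blood cells, had values of 1418 and 1289.7 in Sca1+ and 3383, 2278 and 2223 in Sca1- and a difference of -0.93 ± 0.39. Gfi1, a repressor that granulocyte development requires, had values of 136 and 34.6 in Sca1+ and 359, 179 and 225 in Sca1- and -1.38 ± 0.54. The stem cell antigen gene Cd34 had values of 96.6 and 159 in Sca1+ and 6.396, 104 and 85.6 in Sca1-, with 0.59 and 0.75 in the pairings, the reverse sign. The 16 megakaryocyte genes had a median of -0.37 with 0 separated upwards and 5 downwards. Clec1b, a platelet activating receptor, had values of 157 and 99.8 in Sca1+ and 438, 332 and 416 in Sca1-, with -1.72 ± 0.31 in the blocked fit (adjusted p = 0.09), and the integrin gene Itga2b had values of 247 and 327 in Sca1+ and 606, 670.5 and 570.4 in Sca1-. Of 18 genes of haem synthesis and iron uptake, 5 were separated upwards and 3 downwards, with a median of 0.06. Aco1, an aconitase that also binds iron-responsive RNA elements, had values of 1222 and 1447 in Sca1+ and 371, 905 and 1072 in Sca1-, higher in Sca1+ with a difference of 0.90 ± 0.54. Alas1, the first enzyme of haem synthesis outside red cells, had values of 838 and 631 in Sca1+ and 1693, 1234 and 1528 in Sca1- and a difference of -1.02 ± 0.38. Slc25a37, the mitochondrial iron importer, had values of 377 and 497 in Sca1+ and 771, 783 and 811 in Sca1-, lower in Sca1+ with a difference of -0.86 ± 0.37. The erythroid list had a median of -0.01 that took the other sign under another floor or scaling (up to 0.11).

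Signalling genes included members on either side. Of 31 growth factor receptor and signalling genes, 3 were separated upwards and 4 downwards, beside 12.1% and 8.45% of all genes tested. Besides Tgfbr2, Lifr, the receptor for leukaemia inhibitory factor, was higher, with values of 268 and 319 in Sca1+ and 114, 177 and 139 in Sca1- and 1.06 ± 0.42. Notch1 was lower, with values of 914 and 751 in Sca1+ and 3083, 1478 and 1644 in Sca1- and -1.24 ± 0.45. Nrp1, a co-receptor for vascular growth factor that macrophages also carry, had values of 2167 and 3127 in Sca1+ and 287, 1949.7 and 2181 in Sca1- and exceeded its partners in both pairings (2.92 and 0.60).

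Mesenchymal and vessel wall genes were higher in Sca1+ in the numbered pairing, and their median signals were low on both unnumbered arrays. On the unnumbered Sca1- array the median signals of the fibroblast, basement membrane, stellate and pan-endothelial lists were 115, 129, 113 and 94.3, below its highest background control of 170, so the sign of the unnumbered medians below rests on signals near background. The 25 fibroblast genes had a median of -0.07 in the unnumbered and 1.66 in the numbered pairing. Of them, 19 were at least 2-fold higher in Sca1+ in the numbered pairing, beside 3.1% of all genes tested. In the unnumbered pair 2 were, beside 17.1% of all genes tested. Signals of the fibroblast list summed to 13776 and 137666 in Sca1+ and 8214, 55262 and 52258 in Sca1-. Col6a3, a chain of a microfibrillar collagen, had values of 99.95 and 2772 in Sca1+ and 156, 414 and 473 in Sca1-. Only Sca1+ replicate 2 was high, the numbered Sca1- arrays were intermediate and the unnumbered arrays were both low. Igfbp7, a binding protein of growth factors secreted by vessels and stroma, had values of 207 and 6709 in Sca1+ and 294, 1701 and 1709 in Sca1-, in the same order. Acta2, the smooth muscle actin of myofibroblasts, had values of 2267 and 10739.5 in Sca1+ and 10111, 6448 and 5022 in Sca1-, where the unnumbered Sca1- array was close to Sca1+ replicate 2. Basement membrane genes had medians of -0.55 and 1.21, stellate and smooth muscle genes -0.12 and 1.02, and pan-endothelial genes -0.46 and 0.79. Eng, an endothelial co-receptor that macrophages and stroma share, had values of 184 and 749 in Sca1+ and 422, 334 and 302 in Sca1- and differed by -1.20 and 1.24. Cdh5, the endothelial cadherin, had values of 9.395 and 237 in Sca1+ and 115, 47.98 and 6.997 in Sca1-, above 100 on 2 arrays, 1 in each fraction. The difference between the pairings itself was not tested.

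A few stromal genes were higher in Sca1+ in both pairings. The unnumbered Sca1- signals of Mmp14, Cxcl12, Cnn3 and Gja1 lay below the highest background control of that array (170). The unnumbered differences of these genes therefore rest on signals near background. For Cxcl12 and Cnn3 the unnumbered Sca1- signal was also under the floor, so the size of that difference depends on the floor. Mmp14, a membrane-anchored collagenase, had values of 455 and 3969 in Sca1+ and 113, 1605 and 1335 in Sca1-. The array set separated these values more than the fraction did, and within the sets the difference was 2.01 and 1.44, the smallest blocked adjusted p among genes higher in Sca1+ (0.0521). Cxcl12, a chemokine that retains blood progenitors, had values of 197 and 2417 in Sca1+ and 17.99, 906 and 1186 in Sca1- and differed by 1.62 and 1.22. Cnn3, an actin-binding calponin, had values of 157 and 2438 in Sca1+ and 62.6, 979 and 1083 in Sca1-, with 1.29 and 1.24. Gja1, a gap junction protein, had values of 418 and 560.2 in Sca1+ and 65.8, 198 and 292 in Sca1-, with the fractions separated and a difference of 1.63 ± 0.67. Cnn2, another calponin, which blood cells express, went the other way with values of 3389.7 and 2545 in Sca1+ and 21092, 6049 and 5543 in Sca1- and -1.60 ± 0.64.

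**Figure D5:**
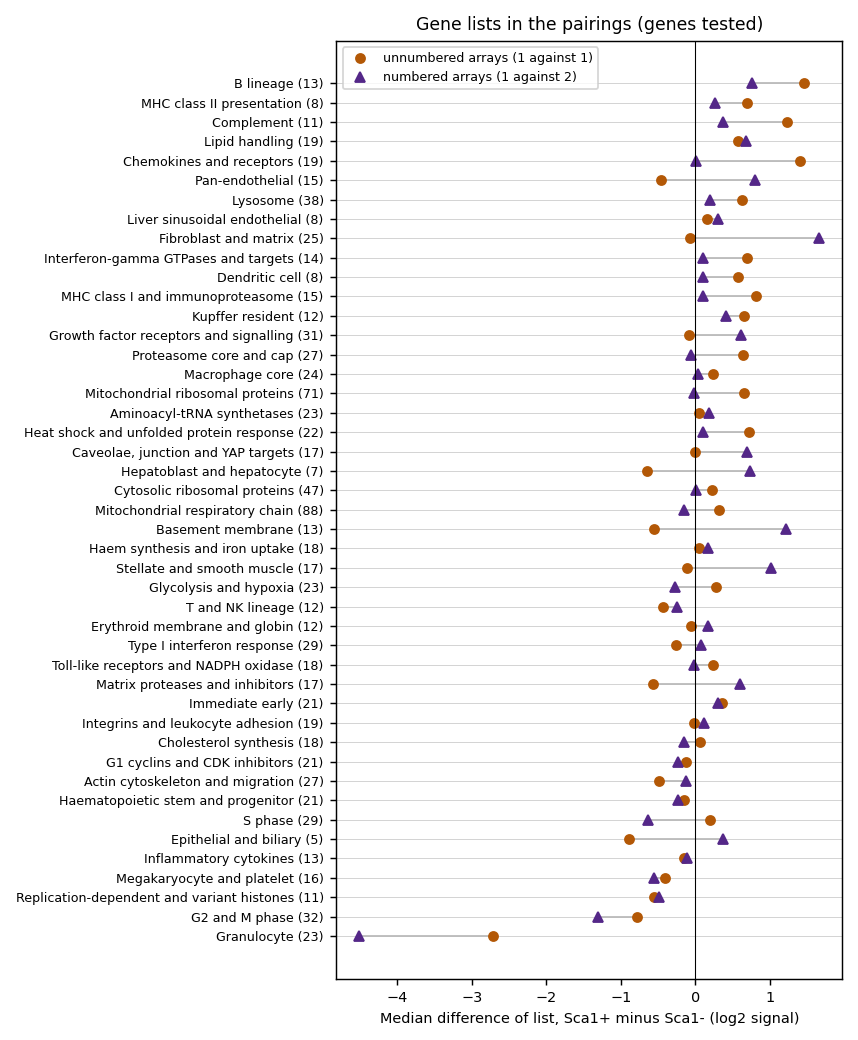
Median difference (x axis, log2 signal) of each gene list with at least 5 tested genes in the unnumbered pair (circles) and the numbered pairing (triangles), ordered by the median over all arrays, with the number of tested genes in brackets. B lineage, complement and lipid handling genes lie right of 0 in both, granulocyte and G2 and M phase genes left of 0 in both, and fibroblast and basement membrane genes have a wide gap, with unnumbered medians that rest on signals near background.

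Type I interferon, cytosolic ribosomal and respiratory chain lists lay close to the all-gene median over all arrays. Over all genes tested, 12.1% were separated upwards and 8.45% downwards. The 29 type I interferon genes had a median of -0.01, which changed sign with scaling, and 2 were separated upwards and 0 downwards. Their median was -0.26 in the unnumbered and 0.07 in the numbered pairing. The 47 cytosolic ribosomal genes had a median of 0.06 (0.22 unnumbered, 0.01 numbered). The 88 respiratory chain genes also had 0.06, with opposite signs in the pairings (0.32 unnumbered, -0.15 numbered). Mitochondrial ribosomal genes (71 tested) had 15 separated upwards, but their median was 0.65 in the unnumbered pair and -0.02 in the numbered one. Proteasome genes had a median of 0.25, with 0.64 and -0.05 in the pairings, and with single arrays left out it ran from 0.060 (Sca1+ replicate 1 left out) to 0.37 (Sca1+ replicate 2 left out). The 14 genes of the interferon-gamma list had a median of 0.29, with 0.70 and 0.10 in the pairings and 1 separated upwards, and that median ran from -0.079 (Sca1+ replicate 1 left out) to 0.44 (Sca1+ replicate 2 left out).

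The promoters of 2 genes higher and 4 genes lower in Sca1+ are shown as examples from each side of the comparison. The 120 bases before the start of transcription, 5' to 3', are from RefSeq on GRCm38.p6. Capitals mark GAGGAA (the core of PU.1 sites), TTNNGNAA (a loose form of C/EBP sites) or TTTGAA (the CHR element of mitotic genes), on either strand. Cd72 and Fcgr1 were the genes higher in Sca1+.
Cd72 (chr4:43454627-43454746, minus strand): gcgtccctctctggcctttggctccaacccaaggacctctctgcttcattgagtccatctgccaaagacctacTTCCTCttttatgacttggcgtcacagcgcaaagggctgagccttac
Fcgr1 (chr3:96293970-96294089, minus strand): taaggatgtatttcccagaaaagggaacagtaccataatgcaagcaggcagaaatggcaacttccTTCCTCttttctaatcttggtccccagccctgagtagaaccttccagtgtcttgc
Pglyrp1 (chr7:18884570-18884689, plus strand): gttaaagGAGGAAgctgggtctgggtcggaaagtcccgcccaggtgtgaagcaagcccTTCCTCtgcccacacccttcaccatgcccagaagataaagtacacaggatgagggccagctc
Chil1 (chr1:134182036-134182155, plus strand): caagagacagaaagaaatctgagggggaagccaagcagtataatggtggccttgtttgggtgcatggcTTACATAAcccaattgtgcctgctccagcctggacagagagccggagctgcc
Cd177 (chr7:24760312-24760431, minus strand): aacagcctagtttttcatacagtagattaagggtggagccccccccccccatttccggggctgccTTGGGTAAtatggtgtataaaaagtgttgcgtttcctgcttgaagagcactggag
Lbr (chr1:181842402-181842521, minus strand): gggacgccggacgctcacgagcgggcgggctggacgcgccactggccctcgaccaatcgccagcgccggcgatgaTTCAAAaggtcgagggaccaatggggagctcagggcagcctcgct

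Windows of 250 bases before the start were found for 6992 of the 8591 genes tested, taking the first listed start of each gene. GAGGAA was in 23.3% of all of them, in 35.9% of the 153 windows of genes at least 2-fold lower in both pairings, in 23.5% of the 17 windows of those higher and in 66.7% of the 21 granulocyte windows. TTNNGNAA was in 28.6%, 39.9%, 23.5% and 52.4% of the same sets. TTTGAA was in 10.4% of all windows and in 37.0% of the 27 windows of G2 and M phase genes. The octamer ATGCAAAT, a motif of B cell promoters, was in 1.44% of all windows and in 1 of 9 windows of B lineage genes. GAGGAA lay 47 to 42 bases before the start in Cd72 and 55 to 50 in Fcgr1, both higher in Sca1+, and 62 to 57 in Pglyrp1, which was lower, so the same letters stood at similar places on both sides of the comparison. These matches describe letters in a window and not binding.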

How the data were processed

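The deposited values are linear intensities per probe set; the trimmed mean of every array lies close to 250. Per the submitters' processing notes, GCOS was used for the 3 numbered arrays; the sources used here name no software for the others. Signals were rescaled so that the 2% trimmed mean of an array became 500, raised to a floor of 64 and turned to log2. Of 22690 probe sets, 64 were controls and 20380 were paired with 1 gene; the one with the highest mean was kept per gene. Genes above 100 on at least 2 of 5 sorted arrays were tested with limma 3.58.1 in R 4.3.3 (6 arrays, 1 mean per group, intensity trend, Benjamini-Hochberg at 0.05, two-sided). The array set was inferred from the titles and tried as a block. The test was checked on simulated data.

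The arrays, the 47 lists and the tests were chosen with earlier results of these data known. Genes named are the 15 per direction with the largest difference shared by both pairings (signal above 500 on the higher fraction, outside the granulocyte, G2 and M and S phase lists), up to 4 per list, up to 3 per list with opposite signs, the 5 smallest p per direction with the block, and 4 markers; other members of a list are given to complete it and were chosen after their values were seen. Of 255 genes the rule names, 95 are printed. No array pair held identical values. Alternatives covered scaling, floor, filter, probe set choice, trend, blocks and each array left out. Promoters are from RefSeq, and figures were drawn with matplotlib 3.10.9.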

Additional observations from a re-analysis of the deposited data

Results flagged for a closer look

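Lists whose median took opposite signs in the pairings, with a gap over 1 log2 unit, are given here, unnumbered pair first. The difference between the pairings was not tested, and each has 1 Sca1+ array. On the unnumbered Sca1- array the median signals of these lists were between 61.7 and 139, all below its highest background control of 170, so the unnumbered signs rest on signals near background. Basement membrane genes had medians of -0.55 and 1.21, fibroblast and matrix genes -0.074 and 1.66, and stellate and smooth muscle genes -0.12 and 1.02. Pan-endothelial genes had -0.46 and 0.79, and matrix protease and inhibitor genes -0.57 and 0.60. Of the lists with under 10 tested genes, hepatoblast and hepatocyte genes had -0.65 and 0.73, and epithelial and biliary genes -0.89 and 0.37.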

How the results depend on the processing

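With the fraction as the only term, the count of genes past the threshold was 0 in each direction under the alternatives run without a block, except that Smad9 (0.46 ± 0.01, adjusted p = 0.0169, named after its value was seen) passed as higher in Sca1+ with no filter. With the array set as a block 85 genes passed as lower, and with the title number as a replicate block, 80 (an unnumbered title read as 1, with 1 residual degree of freedom). Across genes the deviations from the group means had r = 0.566 between the replicate 1 arrays and 0.481 between the replicate 2 arrays. With 2 Sca1+ arrays their deviations mirror each other, so these values are not independent. Sca1- replicate 3 was not compared, so they cannot tell a pairing by title number from the array set. Nothing in the labels says that a number marks a shared culture. Repeating the array set block under the other settings was added after seeing the data. The lower count was then 42 with median scaling, 48 with the mean of all probe sets, 40 with no intensity trend and 0 with the higher floor or no filter, and it ran from 0 to 446 with single arrays left out. The higher count was 3 with quantile normalization, 2 with a pseudocount of 32 and 1 with a floor of 16 or a signal above 300, and ran from 0 to 651 with single arrays left out; these were Cd72, Mmp14 and Prnp, then Mmp14 and Plat, then Plat, and Mmp14. Leaving out an array can put 1 array alone in a fraction of its set, which is then assumed to vary like the rest. The 27 genes at least 2-fold higher in both pairings became 59 with a floor of 16, 10 with the higher floor, 11 with a signal above 300, 17 with the mean of all probe sets, and 52 to 79 with a Sca1- array left out; the 187 lower genes stayed within 1.5 times. Sign changes were met when single arrays were left out, with these ranges: Acta2 (-1.60 to 0.64), Axl (-0.33 to 2.06), Btk (-0.096 to 0.20), C1qa (-0.38 to 1.54), Cd3g (-1.41 to 0.48), Cd74 (-0.16 to 0.32), Cd79a (-0.049 to 1.03), Cdh5 (-0.28 to 1.60), Cnn3 (-1.38 to 2.58), Col6a3 (-1.64 to 3.15), Csf1r (-0.093 to 0.59), Cxcl12 (-1.05 to 2.56), Eng (-0.92 to 1.10), H2-DMa (-0.38 to 0.30), Igfbp7 (-2.20 to 2.82), Igll1 (-0.27 to 0.60), Mcm3 (-0.87 to 0.11), Mcm4 (-0.55 to 0.20), Mcm6 (-0.33 to 0.56), Mmp14 (-0.46 to 2.67), Mmp9 (-3.14 to 0.068), Pecam1 (-0.29 to 1.39), Ptprc (-0.88 to 0.26), Scpep1 (-0.38 to 1.80) and Trem2 (-0.27 to 1.78). Others were met with quantile normalization for Cd74 (-0.030); with the array set as a block for Cd74 (-0.089); with the title number as a replicate block for Cd74 (-0.13), Eng (-0.016), Mcm3 (0.069), Mcm4 (0.0057); with median scaling for H2-DMa (0.0026). The cause was not tested. In all, 60 counts, 1904 gene values and 743 list medians held, while 14 counts grew and 10 shrank by over 1.5 times, 49 gene values changed sign, 56 gene values newly passed the threshold and 37 list medians moved by over 1 SD. A gene value was said to hold if its sign was not reversed and it again missed the threshold, whatever its size. A count of 0 that stayed 0 was also said to hold. These totals therefore do not measure how stable the sizes of the gene differences are. Low signals limit these data: a difference against a value at the floor depends on the floor, and the number of arrays limits the precision.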

Other observations

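The unsorted progenitor array, which has no replicate, gives a further level for the genes above. The genes counted here were chosen by their Sca1+ and Sca1- values, so the counts are not independent support for the differences. The same shares over all genes tested were not computed. Of the 187 genes at least 2-fold lower in Sca1+ in both pairings, 162 had an unsorted signal below all 3 Sca1- arrays, and 151 lay nearer to the Sca1+ mean. Of the 27 genes higher in both, 22 had an unsorted signal above all 3 Sca1- arrays and 19 lay nearer to the Sca1+ mean. Cd72 was an exception, with 1361 on the unsorted array, below both numbered Sca1- arrays. Hcar2 had 55.98, Hdc 35.2 and Hmgb2 623 on the unsorted array. Asprv1, a skin and neutrophil protease, differed from them, with 1454 on the unsorted array beside values of 1305 and 24.2 in Sca1+ and 21612, 1388 and 1528 in Sca1-.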
